A study of Saccharomyces cerevisiae with 6 samples.

Results

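The genes described here encode the proteins that bring pyruvate into yeast mitochondria and the enzymes that oxidize it there or carboxylate it in the cytosol. They are the subunits of the mitochondrial pyruvate carrier (MPC1, MPC2 and MPC3), the components of the pyruvate dehydrogenase (PDH) complex (PDA1, PDB1, LAT1, PDX1 and LPD1) and the pyruvate carboxylases (PYC1 and PYC2). They were chosen by name, and the 10 genes were found among 7126 in the count table, 3 of them (the carrier genes) under the older name FMP37, the older name FMP43 or the systematic name YHR162W. All cells were BY4741, a wild-type haploid laboratory strain of mating type a that carries deletions of several biosynthesis genes used as selection markers. They were grown overnight in synthetic complete (SC) medium with glucose, a fermentable sugar, or with glycerol, which has to be respired, with 3 biological replicates each. The comparison asks how transcripts change between fermentation and respiration. Poly(A) RNA was sequenced without strand information, and the libraries held between 15289163 and 20038052 counts on genes.

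Pyruvate made by glycolysis in the cytosol crosses the inner mitochondrial membrane through the carrier, which in yeast pairs Mpc1 with either Mpc2 or Mpc3. Inside, the PDH complex turns it into acetyl-CoA for the tricarboxylic acid cycle. Its E1 enzyme is built of Pda1 (alpha) and Pdb1 (beta), its E2 core is the acetyltransferase Lat1, and Pdx1 anchors the E3 enzyme Lpd1 to that core. Lpd1 also serves the 2-oxoglutarate dehydrogenase complex and glycine cleavage. Pyruvate carboxylase, which in yeast is a cytosolic biotin enzyme with the isozymes Pyc1 and Pyc2, turns pyruvate into oxaloacetate, which refills the cycle and feeds gluconeogenesis.

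The strain was checked first. Of the selection markers, URA3, LEU2 and MET17 (the MET15 of strain tables) had no count in any library, whereas HIS3 had between 34.4 and 88.9 normalized CPM (counts per gene scaled to library size). All 5 genes specific to mating type a had counts, and their summed level lay between 2235 and 2708 CPM in glucose and, in glycerol, between 238.9 and 242.6. The 3 genes specific to mating type alpha summed to between 16.7 and 22.5 CPM in glucose and between 32.2 and 38.4 in glycerol, so a-type transcripts exceeded alpha-type transcripts in every library. The shift of these mating genes moved with the carbon source, and its part in the results was not tested. In RNA from whole cultures, a change in the number of cells that use a gene and a change in the level per cell cannot be told apart.

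The carrier partners and the carboxylases are pairs of related genes, so their sequences decide whether reads can be told apart. Sequences are those of the RefSeq R64 genome, in which all 10 genes have the coordinates of the count table, and none of them overlaps another gene of that table. The coding sequences of MPC2 and MPC3 were identical at 69.5% of 390 aligned bases, with a longest identical run of 14 bases, and no stretch of 50 bases was shared. Their most alike window of 90 bases is shown on the coding strand, with the 18 mismatches in capitals, because it shows that a read from either gene carries many distinguishing bases. The windows are at chrVIII:423092-423181 and chrVII:977356-977445, coding bases 21 to 110 of each gene.
MPC2: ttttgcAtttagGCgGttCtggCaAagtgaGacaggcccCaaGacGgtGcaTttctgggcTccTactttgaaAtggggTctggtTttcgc
MPC3: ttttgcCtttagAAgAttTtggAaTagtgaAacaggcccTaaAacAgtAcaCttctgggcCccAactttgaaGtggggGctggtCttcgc

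The carboxylase genes are closer to each other. PYC1 and PYC2 were identical at 85.5% of 3532 aligned bases and shared a run of 200 identical bases, longer than a single read of 150 bases, at chrVII:385700-385899 in PYC1 and chrII:661543-661742 in PYC2. Of the 3488 stretches of 50 bases in PYC1, 295 (8.46%) also occurred in PYC2. Of the 3388 stretches of 150 bases, the length of a read, 51 did. A full-length read from one of those 51 stretches cannot by itself be assigned to either gene. How the authors' counting treated such reads is not given in the sources used here. Outside the shared run the genes soon differ, as the next 90 coding bases show, at chrVII:385900-385989 and, on the reverse strand, at chrII:661453-661542, with the 6 mismatches in capitals.
PYC1: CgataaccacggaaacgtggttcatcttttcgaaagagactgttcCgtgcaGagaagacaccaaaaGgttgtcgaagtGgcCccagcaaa
PYC2: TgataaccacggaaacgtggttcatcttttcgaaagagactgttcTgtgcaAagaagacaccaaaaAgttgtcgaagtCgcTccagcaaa

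Short motifs were searched on both strands in the 300 bases before each start codon. The motif CCAAT, the core of the site of the Hap2/3/4/5 activator of respiratory genes, occurred before 5 of the 10 genes and before 42.5% of 6144 protein-coding genes tested. The stress element AGGGG occurred before 3 of the 10 genes and 22.1% of all, GTCAC, the site of the retrograde regulators Rtg1 and Rtg3, before 2 and 26.9%, and the Mig1 core forms CCCCGC and CCCCAC before 1 gene each and 3.09% and 4.54%. Motifs that hold a run of C or G can overlap where that run is longer. MPC3 had 3 CCAAT matches, of which 2 lie close to each other and are shown with the motif in capitals (it reads ATTGG on this strand), and the single match of LPD1 is shown beside it.
MPC3, chrVII:977186-977215: tggtgcgttgcaATTGGagtATTGGagaaa
LPD1, reverse strand of chrVI:103311-103340: ggctgttccctcATTGGcgagaagtctccg
A match describes these letters in these windows and says nothing of binding.

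The quasi-likelihood test of edgeR called 4 of the 10 genes higher in glycerol and 3 lower (adjusted p under 0.05), and 3 did not pass. The genes that rose were MPC3, PYC1, LPD1 and MPC1, those that fell were MPC2, PDB1 and LAT1, and PDA1, PDX1 and PYC2 did not pass. Over all 6330 tested genes 81.8% passed, 41.7% as higher and 40.1% as lower, so 7 of 10 is close to that background. For 7 of the 10 genes, and for 83.8% of all tested genes, no glycerol library lay within the range of the glucose libraries or the reverse. Fold changes are glycerol over glucose, are given with their standard errors (SE), and are scaled with TMM factors, which correct for the make-up of each library. Over all tested genes the median log2 value was 0.03 with these factors and 0.52 with library totals alone. With library totals alone 7 of the 10 genes were higher and 1, MPC2, was lower. The calls of PDB1 and LAT1 as lower therefore depend on the scaling, and under both scalings every value is relative to other transcripts.

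**Figure D1:**
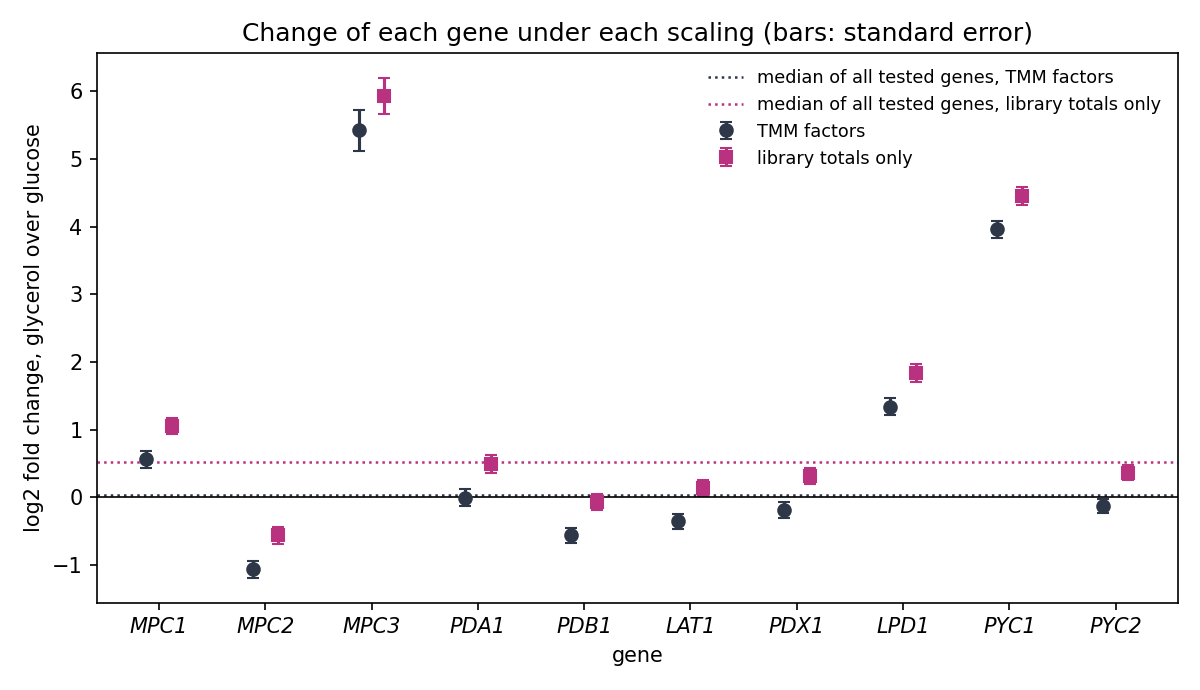
Log2 fold change (glycerol over glucose) of each gene with TMM factors (circles) and with library totals alone (squares), from 3 libraries per carbon source, with bars of 1 standard error (SE) and dotted lines at the median of all 6330 tested genes. MPC3, PYC1, LPD1 and MPC1 lie above and MPC2 below zero under both scalings, while PDA1, LAT1, PDX1 and PYC2 change sign.

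The partners of Mpc1 exchanged places. The MPC3 transcript (YGR243W, chromosome VII from 977336 to 977776) was at 15.1, 37.2 and 14.1 normalized CPM in glucose and at 839.4, 937.1 and 1089 in glycerol. Every glycerol library was far above every glucose library, and glucose replicate 2 stood above the other glucose libraries. The log2 fold change was 5.43 (SE 0.305; adjusted p = 2.5e-10, edgeR), which placed MPC3 at rank 57 from the top of 6330 genes. Without glucose replicate 2 it was 6.04.

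The MPC2 transcript (YHR162W, chromosome VIII from 423072 to 423461) moved the other way, from 1143, 1152 and 911.8 normalized CPM in glucose to 542.4, 526.7 and 463.1 in glycerol. The groups did not overlap, and the log2 fold change was -1.07 (SE 0.124; adjusted p = 1.1e-06). The transcript of the common partner MPC1 (YGL080W, chromosome VII from 358636 to 359028) was at 111.4, 99.4 and 85.2 normalized CPM in glucose and at 141.6, 164.2 and 129.7 in glycerol. It rose in every glycerol library, by a log2 fold change of 0.56 (SE 0.121; adjusted p = 5.8e-04).

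The ratio of MPC3 to MPC2 within a library does not depend on how libraries are scaled to each other. In counts per kilobase of gene length, it was 0.0117, 0.0286 and 0.0136 in the glucose libraries and 1.37, 1.57 and 2.08 in the glycerol libraries. MPC3 thus made up between 1.15 and 2.77% of the sum of both partners in glucose and between 57.8 and 67.5% in glycerol. On the log2 scale the ratio rose by 6.64 (SE 0.436, n = 3 libraries each; exact two-sided permutation test p = 0.1). This p is the smallest that 3 against 3 libraries can give, and it stayed at 0.1 after adjustment over the 5 ratios compared. Without glucose replicate 2 the rise of the ratio was 7.03.

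The sum of MPC2 and MPC3 per kilobase was also set against MPC1, a comparison chosen after the values were seen. It was 10.5, 12.0 and 10.9 times MPC1 in the glucose libraries and 9.14, 8.32 and 11.1 times in the glycerol libraries. These ranges overlap, so the sum of the partners relative to MPC1 did not separate the carbon sources, while its make-up did.

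**Figure D2:**
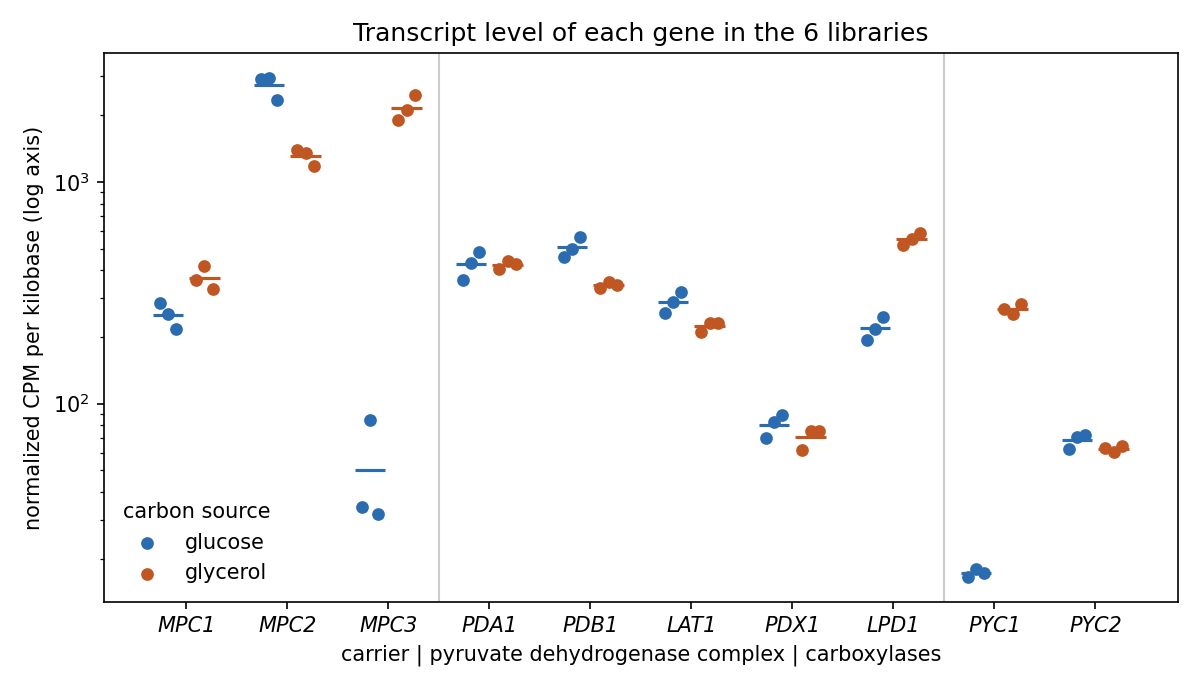
Normalized CPM per kilobase (log axis) of each gene in the 3 glucose (blue) and 3 glycerol (orange) libraries, with horizontal lines at the group means. MPC3 and PYC1 lie far higher in glycerol and MPC2 lower, whereas the libraries of PDA1, PDX1 and PYC2 overlap between the carbon sources.

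Of the PDH genes only LPD1, which encodes E3, rose with TMM factors, and with library totals alone PDA1 and PDX1 passed as higher too. The LPD1 transcript (YFL018C, chromosome VI from 101628 to 103127) was at 290.4, 326.5 and 371.0 normalized CPM in glucose and at 780.4, 834.1 and 886.4 in glycerol. Each glycerol library was more than double any glucose library, and the log2 fold change was 1.34 (SE 0.1201; adjusted p = 5.2e-08, edgeR).

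The genes of E1 and of the E2 core fell or did not pass. PDA1 (YER178W, chromosome V from 546817 to 548079), the alpha subunit that PDH kinase phosphorylates, was at 457.3, 546.8 and 609.5 normalized CPM in glucose and at 510.4, 557.9 and 539.1 in glycerol. The groups overlapped and the log2 fold change was -0.0056 (SE 0.121; adjusted p = 0.967), with library totals alone 0.49. PDB1 (YBR221C, chromosome II from 665153 to 666253), the beta subunit, went from 505.8, 548.6 and 625.1 normalized CPM in glucose to 366.0, 389.0 and 379.5 in glycerol. It fell without overlap, by 0.57 on the log2 scale (SE 0.112; adjusted p = 2.6e-04), and with library totals alone its value was -0.073 and did not pass.

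LAT1 (YNL071W, chromosome XIV from 491523 to 492971), the E2 acetyltransferase, was at 370.8, 417.1 and 463.4 normalized CPM in glucose and at 306.4, 334.0 and 335.9 in glycerol. The groups did not overlap and it fell by 0.36 on the log2 scale (SE 0.113; adjusted p = 0.0086, edgeR). Without glycerol replicate 1 the value was -0.29 and did not pass (adjusted p = 0.062, against at most 0.034 without any other library), and with library totals alone it was 0.14. PDX1 (YGR193C, chromosome VII from 884509 to 885741), the E3-binding protein, was at 85.9, 102.1 and 109.2 normalized CPM in glucose and at 76.4, 92.6 and 92.4 in glycerol. The groups overlapped and the log2 fold change was -0.19 (SE 0.116; adjusted p = 0.153), with library totals alone 0.31. Without glucose replicate 1 it was -0.27 and passed (adjusted p = 0.027).

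The glucose libraries differed among themselves in a shared way for this complex. All 5 PDH genes and PYC2 were lowest in glucose replicate 1 and highest in glucose replicate 3. MPC1, MPC2 and MPC3 were lowest in glucose replicate 3, MPC3 only narrowly (14.1 against 15.1 normalized CPM in glucose replicate 1). The order of the PDH genes over the glucose libraries was found for 27.4% of all tested genes, so it is common beyond this complex.

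Ratios within a library leave out differences that both genes share. The ratio of PDB1 to PDA1 in counts per kilobase was 1.27, 1.15 and 1.18 in the glucose libraries and 0.823, 0.7999 and 0.808 in the glycerol libraries. The beta subunit transcript thus exceeded the alpha subunit transcript in every glucose library and lay below it in every glycerol library, a log2 difference of -0.56 (SE 0.0443; exact two-sided permutation test p = 0.1, the smallest possible). The ratio of LPD1 to PDA1 was 0.535, 0.503 and 0.513 in glucose and 1.29, 1.26 and 1.38 in glycerol, a log2 difference of 1.34 (SE 0.0490; exact permutation p = 0.1). E3 transcripts were thus fewer per kilobase than E1 alpha transcripts in glucose and more numerous in glycerol.

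The transcripts of PDX1 and LAT1 kept closer together. The ratio of PDX1 to LAT1 in counts per kilobase was 0.272, 0.288 and 0.277 in the glucose libraries and 0.293, 0.326 and 0.323 in the glycerol libraries. The groups lay next to each other without overlap, and the log2 difference of 0.17 (SE 0.0549; exact permutation p = 0.1) was the smallest in size of the 5 ratios compared.

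**Figure D3:**
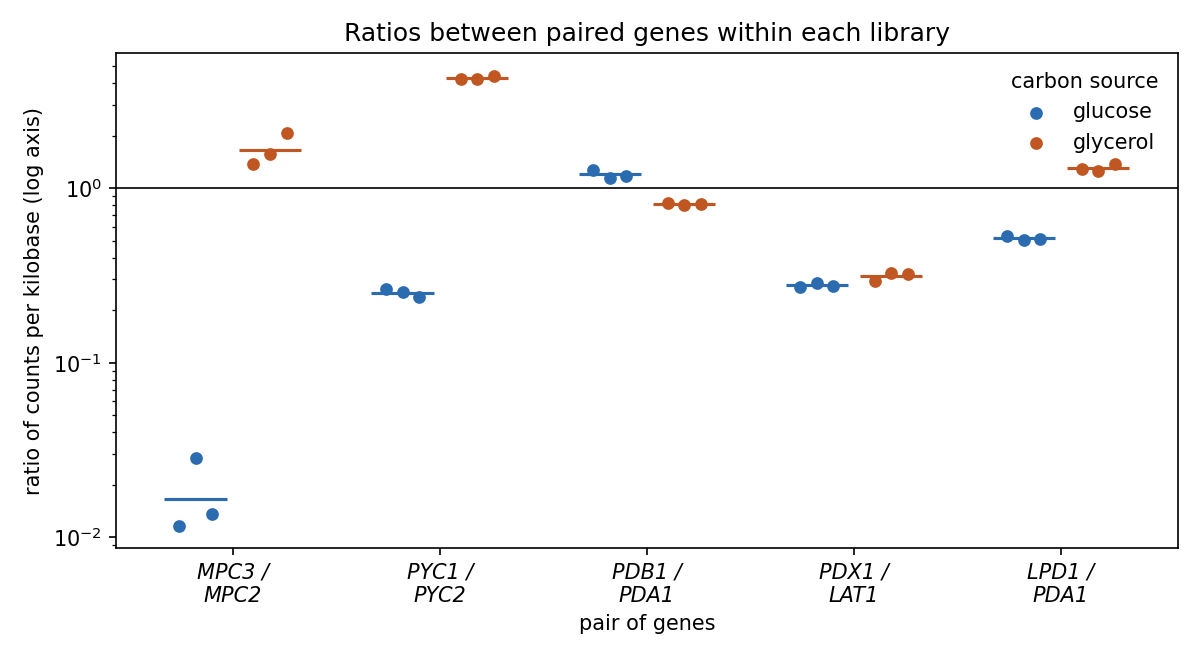
Ratio of counts per kilobase (log axis) between the genes of each pair in the 3 glucose (blue) and 3 glycerol (orange) libraries, with horizontal lines at the geometric means and a line at a ratio of 1. MPC3 to MPC2, PYC1 to PYC2 and LPD1 to PDA1 cross upward and PDB1 to PDA1 crosses downward from glucose to glycerol, and PDX1 to LAT1 stays near 0.3 in both.

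The carboxylase isozymes parted. The PYC1 transcript (YGL062W, chromosome VII from 385196 to 388732) was at 58.4, 63.6 and 60.9 normalized CPM in glucose and at 945.7, 895.8 and 1002 in glycerol. The libraries of each carbon source lay close together and far from the other group, and the log2 fold change was 3.96 (SE 0.1198; adjusted p = 3.3e-13, edgeR), rank 163 from the top. The PYC2 transcript (YBR218C, chromosome II from 658707 to 662249) was at 220.1, 249.9 and 256.9 normalized CPM in glucose and at 223.1, 213.4 and 227.1 in glycerol. These groups overlapped and the log2 fold change was -0.13 (SE 0.103; adjusted p = 0.246), with library totals alone 0.36.

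PYC2 was therefore the more abundant isozyme transcript in glucose and PYC1 in glycerol. The ratio of PYC1 to PYC2 in counts per kilobase was 0.266, 0.255 and 0.237 in the glucose libraries and 4.25, 4.21 and 4.42 in the glycerol libraries. PYC1 made up between 19.2 and 21.0% of both isozymes in the glucose libraries, against a range from 80.8 to 81.5% for the glycerol libraries. The log2 ratio rose by 4.09 (SE 0.0525; exact two-sided permutation test p = 0.1, the smallest possible). Reads from the shared stretches of the genes could blur this ratio, and their part was not tested. Against PDA1, in a comparison chosen after the values were seen, the sum of both isozymes per kilobase rose from between 0.186 and 0.217 in glucose to between 0.710 and 0.818 in glycerol.

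The levels per kilobase changed their order with the carbon source. In glucose, MPC2 led at 2741 ± 349.2 normalized CPM per kilobase (SD, n = 3), followed by PDB1 at 508.5 ± 54.9 and PDA1 at 425.9 ± 60.6, and PYC1 came last at 17.2 ± 0.724. In glycerol, MPC3 led at 2166 ± 284.8 and was followed by MPC2 at 1310 ± 107.7 and LPD1 at 555.7 ± 35.3, and PYC2 came last at 62.4 ± 1.98. Neighbors whose libraries overlapped in glucose were PDB1 with PDA1, LAT1 with MPC1, MPC1 with LPD1, PDX1 with PYC2, and PYC2 with MPC3. In glycerol they were PDA1 with MPC1, MPC1 with PDB1, and PDX1 with PYC2.

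The genes around this step were read from 6 lists with 38 genes in all, chosen from knowledge of the pathway. Earlier results of these data were known when the lists were made, so the counts describe the lists and are no independent test. All 38 were tested, of which edgeR called 27 higher and 8 lower in glycerol, beside 41.7% and 40.1% of all tested genes, and their median log2 fold change was 0.70, against 0.03 for all tested genes. The regulators of the PDH complex were all higher, 4 of 4, with a median of 0.55. The kinase gene PKP1, whose product phosphorylates and inactivates Pda1, was at 21.3, 21.9 and 24.4 normalized CPM in glucose and at 92.7, 92.0 and 92.9 in glycerol, a log2 fold change of 2.04 (SE 0.103; adjusted p = 7.9e-11). The other kinase gene, PKP2, was at 0.31, and the genes of the opposing phosphatases, PTC6 and PTC5, at 0.77 and 0.33. PTC5 did not pass without glucose replicate 1, without glucose replicate 2 or without glycerol replicate 3, at 0.24, 0.29 and 0.28. PKP1 thus rose while the libraries of PDA1, the gene of its substrate, overlapped.

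Of the other complexes that use Lpd1, the 5 genes listed together all rose, beside 41.7% of all tested genes, with a median log2 fold change of 1.997. KGD1 and KGD2, the E1 and E2 of 2-oxoglutarate dehydrogenase, were at 2.56 and 1.997, and its small subunit KGD4 at 1.27. GCV2 and GCV1, which encode the P and T proteins of glycine cleavage, were at 2.92 and 1.27. GCV3, which encodes the lipoylated H protein of glycine cleavage and was listed with lipoylation, was lower than these at 0.44. LPD1, at 1.34, lay between these partners' lowest and highest values.

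The genes that attach or supply cofactors were mixed, beside 41.7% of all tested genes called higher and 40.1% called lower. Of the 6 genes of lipoylation, which equip Lat1 with its lipoyl group, 3 were higher (PPT2 at 0.64, ACP1 at 0.45 and GCV3 at 0.44), 2 were lower (AIM22 at -0.81 and LIP2 at -0.58), and the lipoyl synthase gene LIP5, at -0.08, did not pass. With library totals alone LIP2 was at -0.088 and did not pass, and LIP5 turned to 0.42. Of the 5 genes of cofactor supply, the biotin importer gene VHT1 (0.40) and the gene BIO5 for uptake of a biotin precursor (0.53) were higher, and FLX1, which supplies mitochondrial FAD, was lower (-1.02). The biotin ligase gene BPL1 (-0.22), whose product biotinylates the carboxylases, and the thiamine pyrophosphate carrier gene TPC1 (-0.15) did not pass, and with library totals alone both turned, to 0.27 and 0.34. BPL1 lay near the threshold (adjusted p = 0.056, edgeR), and passed as lower with the replicate number as a block (-0.22, adjusted p = 0.045), with DESeq2 size factors (-0.23, adjusted p = 0.044) and without glucose replicate 1 (-0.26, adjusted p = 0.040).

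Of the genes that make or divert pyruvate, 5 of 8 were higher and 3 lower, beside 41.7% and 40.1% of all tested genes, and the median log2 fold change was 1.56. CDC19, the main pyruvate kinase, was at -2.70 and its isozyme PYK2 at 2.18. Mean normalized CPM went from 3537 in glucose to 544.9 in glycerol for CDC19 and from 21.2 to 96.1 for PYK2. CDC19 thus stayed the more abundant transcript with both carbon sources. The malic enzyme gene MAE1, whose product makes pyruvate inside mitochondria, was at -1.49. The lactate dehydrogenase genes CYB2 and DLD1, whose products make pyruvate from lactate, were at 5.07 and 2.21. Of the pyruvate decarboxylases, which compete with the carrier for pyruvate, PDC1 was at -0.61 (with library totals alone at -0.12, which did not pass), PDC5 at 0.94 and PDC6 at 4.34. PDC1 stayed by far the most abundant, with means of 6060 normalized CPM in glucose and 3959 in glycerol. The means were 31.4 and 60.3 for PDC5 and 2.45 and 49.8 for PDC6.

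Of the genes that use acetyl-CoA and oxaloacetate, 8 of 10 were higher and 2 lower, beside 41.7% and 40.1% of all tested genes, and the median log2 fold change was 3.27. PCK1, the gluconeogenic enzyme that takes oxaloacetate, had the largest value of the lists at 7.22, and the citrate synthase genes CIT2, CIT3 and CIT1 were at 5.04, 4.24 and 2.90. The malate dehydrogenase genes MDH1 (mitochondrial) and MDH2 (cytosolic) were at 1.75 and 0.52. The genes that make or handle acetyl-CoA outside the PDH complex, ACS1 and ACH1, were at 5.76 and 3.65, and ACS2 was at -0.80. OAC1, which carries oxaloacetate into mitochondria, was at -5.004.

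**Figure D4:**
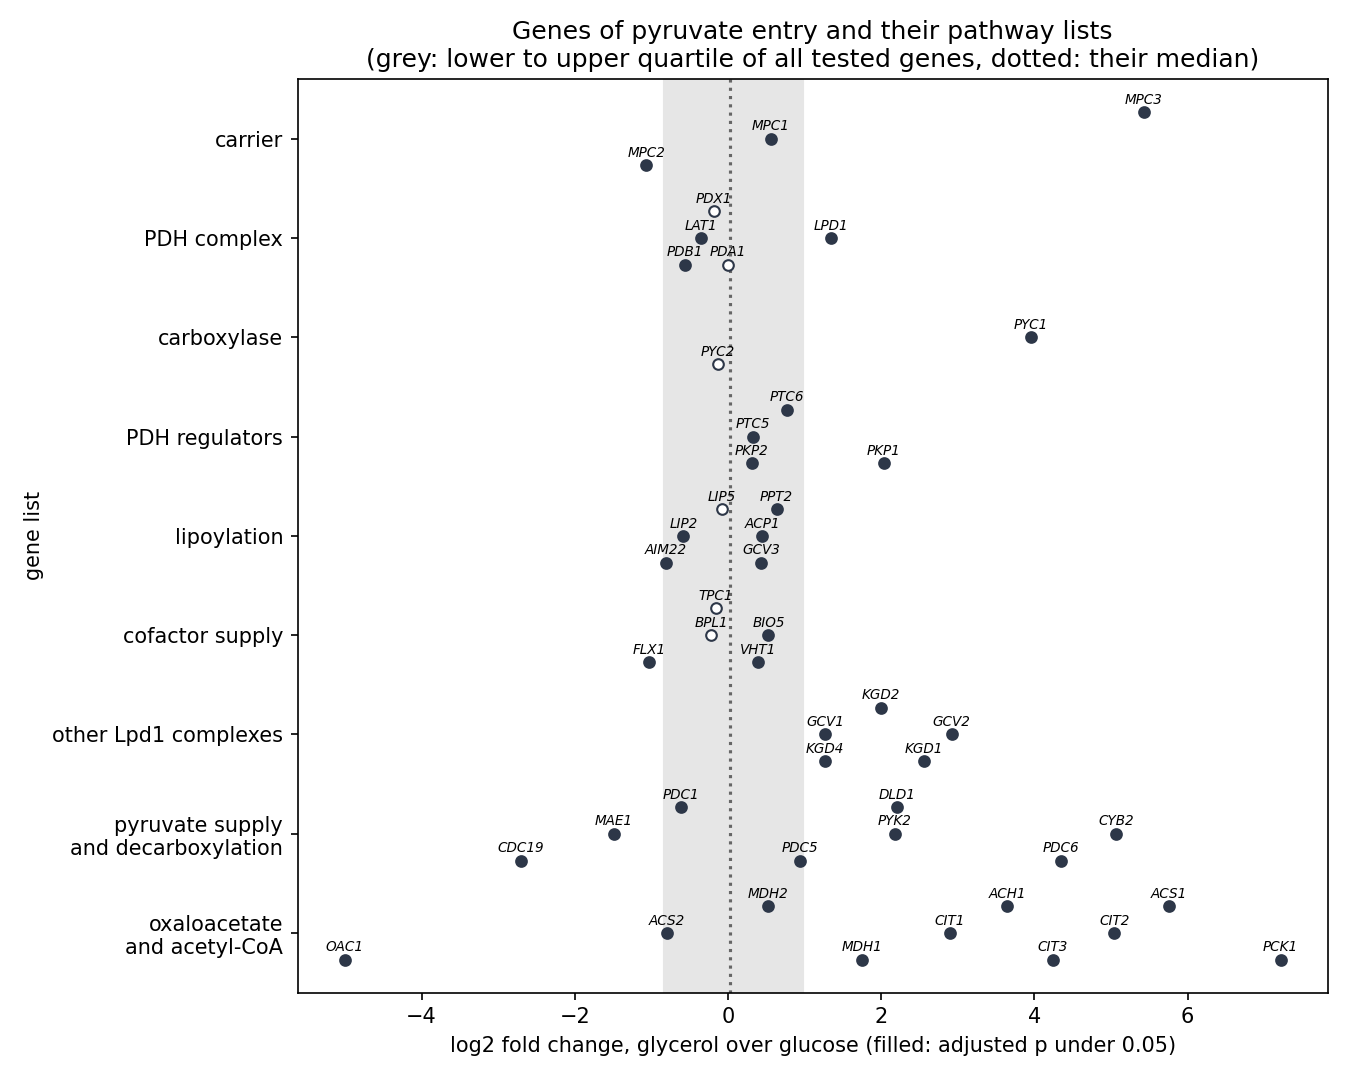
Log2 fold change (glycerol over glucose) of each gene by list, with filled circles for an adjusted p under 0.05, a grey band over the range between the lower and upper quartiles of all 6330 tested genes and a dotted line at their median of 0.03. The 5 genes listed as other Lpd1 complexes lie to the right of the band, as does LPD1, while GCV3 of glycine cleavage (shown under lipoylation) and the other 4 PDH genes lie inside it.

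The genes most like MPC3 in their profile over the 6 libraries were IRC14, CRC1 and TMA10, at distances of 0.367, 0.406 and 0.573 (Euclidean, log2 values with a prior count of 2, centered per gene). CRC1 encodes the mitochondrial carnitine carrier, and IRC14 overlaps the gene IDH2 on the other strand, so its reads cannot be told from those of IDH2. IRC14 had only a few reads in each glucose library (between 0.0756 and 0.278 normalized CPM), so its fold change is not given. Its distance, and so its place as the nearest gene, depends on the prior count. The log2 fold changes were 5.19 for CRC1 and 5.54 for TMA10, and without glucose replicate 2 they were 5.89 and 5.91. The genes most like PYC1 were APJ1, CLD1 and REG2, at distances of 0.202, 0.216 and 0.221 and with log2 fold changes of 3.86, 3.91 and 4.02. APJ1 encodes a J-domain chaperone, CLD1 a cardiolipin phospholipase, and REG2 a regulator of the phosphatase Glc7. With 2 groups of libraries, likeness rests mostly on the size of the change.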

How the data were processed

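Poly(A) RNA of 6 BY4741 cultures was sequenced, and conditions were taken from the sample titles. The authors deposited 1 table with whole-number counts of reads per gene, without normalization, and FPKM values scaled by gene length and a library size. The submitters' processing notes name fastp 0.20.1, HISAT2 2.2.1, featureCounts 2.0.1, DESeq2 and the R64 build, with no options. The table's columns of the authors' own comparison (group means, log2 fold changes, p-values) were not used. Genes were matched to RefSeq symbols by systematic name (6048 of 7126).

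Of the genes, 6330 reached 10 counts in 3 or more libraries and entered edgeR 4.0.16 in R 4.3.3 (TMM factors, quasi-likelihood test, Benjamini-Hochberg adjustment over all tested genes, threshold 0.05). The steps were run on simulated data in which few genes changed, about equally in both directions. Unlike the real libraries, the simulated ones did not differ in make-up, so this run cannot test the scaling. Normalized CPM divide counts by the TMM-scaled library total, and standard errors come from the fold change and F. Ratios are counts per kilobase within a library, tested with scipy 1.17.1. Sequences were aligned with Biopython 1.88, and figures drawn with matplotlib 3.10.9. Alternatives were library totals alone, DESeq2 size factors in edgeR, DESeq2 1.42.0, no filter on low counts, the replicate number as a block, each library left out and, for ratios, the deposited FPKM. Replicates differed by more than counting noise (chi-square per degree of freedom 16.1 to 62.2), so none was counted as a copy.

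The genes and lists were chosen with earlier results of these data known. Named genes are all 10 genes, the members of the lists, and the 3 genes nearest in profile to the more changed member of each isozyme pair and to PDA1.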

Additional observations from a re-analysis of the deposited data

How the results depend on the processing

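Scaling was the choice that moved most. With library totals alone, 1652 genes were lower in place of 2539, and of the 10 genes 7 were higher and 1 was lower in place of 4 and 3. The log2 fold changes then turned to 0.49 for PDA1, 0.14 for LAT1, 0.31 for PDX1, 0.36 for PYC2, 0.42 for LIP5, 0.34 for TPC1, 0.27 for BPL1, 0.48 for CHL4 and 0.48 for RVS167. The construction of this alternative shows the cause, since the distance of each of the 10 genes from the median of all genes stayed within 0.01 (PDB1 -0.59 and -0.60, LAT1 -0.39 and -0.39). When single libraries were left out, values near zero changed sign: PDA1 ran from -0.11 to 0.092, LIP5 from -0.23 to 0.066, CHL4 from -0.12 to 0.0895, BCH1 from -0.083 to 0.086 and RVS167 from -0.11 to 0.058. PDA1 was at 0.0033 with the replicate block, and BCH1 at -0.0095 with DESeq2 or its size factors and at -0.0032 without the filter. The 10 genes called higher stayed at 4 and those called lower ran from 2 to 4 over these fits. When single libraries were left out, the log2 difference ran from 6.38 to 7.03 for MPC3 to MPC2 and from 4.04 to 4.12 for PYC1 to PYC2. It ran from -0.59 to -0.52 for PDB1 to PDA1, from 0.14 to 0.22 for PDX1 to LAT1 and from 1.30 to 1.37 for LPD1 to PDA1. With 3 libraries per group, such shifts are always smaller than the spread between replicates, so that comparison tests nothing. The deposited FPKM and the replicate block could not move them, since both give the same difference by construction. Of the 10 genes, 5 kept direction and call under all 11 alternatives, namely MPC1, MPC2, MPC3, LPD1 and PYC1.

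The replicate numbers were checked for pairing through deviations from group means. Same-numbered libraries correlated at 0.128, 0.046 and 0.131 over all tested genes, so this set does not pass 0.1 throughout. Different-numbered libraries there ran from -0.136 to 0.012. Over the 5667 genes whose mean count reached 100, same-numbered libraries correlated at 0.246, 0.102 and 0.281, and different-numbered ones ran from -0.29 to 0.054. Same-numbered values were thus the higher ones in both sets. The main fit leaves the numbers out. No label says what a number shares, and what lies behind the likeness was not tested. With the replicate block 4 of the 10 genes were higher and 3 lower, as without it, and of the pathway genes BPL1 alone changed its call, passing as lower. For the ratios the block cannot change the difference, since the mean over same-numbered pairs equals the difference of group means. It stayed at 6.64 for MPC3 to MPC2, 4.09 for PYC1 to PYC2, -0.56 for PDB1 to PDA1, 0.17 for PDX1 to LAT1 and 1.34 for LPD1 to PDA1. The exact sign-flip permutation test over the 3 pairs gave p = 0.25 for each ratio, the smallest that 3 pairs can give. IRC14 gave no value without a glycerol library, since it then reached the count minimum in too few libraries. Depth was not limiting, since every gene of the carrier, the PDH complex and the carboxylases had at least 186 counts in each library.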

Other observations

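A pair of ratios was computed after the values were seen and is given without a test. LPD1 exceeded KGD1 per kilobase by between 3.34 and 3.74 times in the glucose libraries and by between 1.44 and 1.55 times in the glycerol libraries, so the transcript of the shared E3 was closer to that of the 2-oxoglutarate dehydrogenase E1 in glycerol. The kinase transcript PKP1 was between 0.0427 and 0.0496 of the PDA1 transcript per kilobase in the glucose libraries, against a range from 0.176 to 0.194 in the glycerol libraries.

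The genes nearest in profile to PDA1 were CHL4, BCH1 and RVS167, at distances of 0.0609, 0.0658 and 0.0683, with log2 fold changes of -0.0142, 0.0027 and -0.015. They encode proteins of the kinetochore, of the exomer cargo complex and of endocytosis.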
